A study of Mus musculus with 14 samples.

Results

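Glycolysis, glucose uptake and the fate of pyruvate are covered here by 41 genes in mouse pluripotent stem cells and fibroblasts measured on bead arrays. The genes were taken as a fixed list of symbols and matched to the array's probes by gene identifier. Of the 41, 36 had at least 1 named probe, and 30 of these 36 were detected (detection p under 0.05, above the negative-control beads) on both arrays of at least 1 group and were tested, among 10481 genes tested in all. Gpi1, Eno1, Ldhb, G6pdx and Pgd were matched to no named probe and are not analysed here. Pgm2, Pfkfb3, Pgk1, Bpgm, Slc16a1 and Pdk2 had a probe that did not reach detection on both arrays of any group, which says nothing of the RNA where a probe binds poorly. The 14 arrays form 7 groups of 2, all of mouse cells.

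The study asked how the distal and the proximal enhancer of Oct4 (Pou5f1) are used in naive and primed pluripotency. Epiblast stem cells (EpiSCs) are a primed state and came from epiblasts. The labels give embryonic day 6.5 for replicate 1 and 6.6 for replicate 2, a step that may be a slip of numbering and not a difference in age. They do not say whether the replicates were separate derivations. Epiblast-like cells (EpiLCs) were the GFP-negative, RFP-positive cells of a line that carries both O4-DE-GFP, which reports the distal enhancer in green, and O4-PE-RFP, a tdTomato transgene without that enhancer. The same C57/B6 embryonic stem cell (ESC) line gave the 2i ESCs, which were GFP-positive and RFP-negative in N2B27 medium with LIF, 3 µM CHIR99021 (a GSK3 inhibitor) and 1 µM PD0325901 (a MEK inhibitor). Embryonic fibroblasts of the mouse (MEFs) formed another group, and a further ESC line had the O4-DE-GFP reporter alone, in serum with LIF, with no sort gate in the labels (single-reporter ESCs). RFP-positive and RFP-negative serum ESCs, both GFP-positive, came from the line with both reporters (the double-reporter line), grown in serum with LIF. The labels number replicates 1 and 2 and do not say that they were separate cultures, so every p-value measures the spread between arrays, which may be technical. In RNA from whole populations, fewer cells of a type and less RNA per cell cannot be told apart.

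Cells take up glucose through transporters of the Slc2a family, trap it with hexokinase, commit it to glycolysis at phosphofructokinase and split it into triose phosphates that end as pyruvate. Pyruvate is either reduced to lactate by lactate dehydrogenase and exported, or oxidised in mitochondria by the pyruvate dehydrogenase complex, which the Pdk kinases switch off by phosphorylation. Many of the steps are carried by several isoenzymes with different tissue ranges. Primed pluripotent cells are known for relying heavily on glycolysis, and naive ESCs for using both glycolysis and respiration.

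All values are log2 signals after background correction and quantile normalization, and levels of different genes are not compared, since each has its own probe. Detected probes made up 46.4% to 53.8% of the array, and the scanner medians were 313.5 and 316.8 on the EpiSC arrays, against 142.6 to 209.4 on the others. The labelled cell types were checked against marker lists. Of the 7 pluripotency markers, all were detected on every array of the pluripotent groups, and 2 on each MEF array. Not all were far above MEFs in the primed groups. Sox2 was at 5.9 and 6.3 in EpiSCs and 5.5 and 5.8 in MEFs, and Zfp42 at 6.6 and 6.8 in EpiLCs and 6.2 and 6.5 in MEFs. Pou5f1, Nanog, Sall4, Utf1 and Lin28a were far above MEFs in every pluripotent group. The mean of 10 fibroblast markers was 12.23 and 12.37 in MEFs, 9.96 and 10.04 in single-reporter ESCs, 6.40 and 6.39 in EpiLCs, 8.08 and 8.11 in 2i ESCs, and 8.13 to 8.20 in the serum ESCs of the double-reporter line. The EpiSC arrays stood apart from each other: their correlation over all genes was 0.976, against 0.997 or 0.998 in the other groups. EpiSC replicate 1 had a fibroblast marker mean of 6.20 and EpiSC replicate 2 one of 7.97. The mean of 8 naive markers was 7.15 and 6.45 in EpiSCs, 6.88 and 6.85 in EpiLCs and 12.05 and 12.02 in 2i ESCs, and its genes did not all differ one way between the EpiSC arrays: Esrrb was at 11.32 and 8.16, Klf4 at 7.60 and 8.51. Of 6 markers of extraembryonic endoderm, 5 were tested, with a mean of 8.29 and 7.72 in EpiSCs, 6.41 and 6.37 in EpiLCs and 5.98 and 5.91 in 2i ESCs. This mean was 7.76 and 7.58 in MEFs and 7.62 and 7.71 in single-reporter ESCs, so it was not high in EpiSCs alone. The largest gap between the replicates of any pathway gene was 3.10 log2 in EpiSCs, against at most 0.61 in any other group. Whether feeder or other cells played a part in these values was not tested.

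Promoter windows of 300 bases (250 before to 50 after the annotated start, RefSeq, GRCm38.p6) were found for 40 of the 41 genes, 29 of them tested. The letters ACGTG, the core of the sites bound by hypoxia-inducible factors (HIFs), were searched on both strands. CACGTG, the E-box read by Myc and ChREBP, contains that core. The core was present in a window of 15 of the 29 tested pathway genes (51.7%), against 29% of the 8477 tested genes with a window. The E-box was in 3 of 29 (10.3%, against 11.5%), and AAGGTCA, which the Esrr receptors bind, in 1 of 29 (3.45%, against 4.02%). These are matches of letters and not measured binding, and the base composition of the windows was not matched. Windows are shown for genes on which the results below turn: Slc2a1, Aldoc and Ldha, higher in EpiSCs than in EpiLCs, and Pfkp, the pathway gene with the largest difference between EpiLCs and 2i ESCs. Capitals mark ACGTG or its complement CACGT, and the E-box where they overlap, at chr4:119108495-119108794 (plus strand), chr11:78322823-78323122 (plus), chr7:46845554-46845853 (plus) and chr13:6648722-6649021 (minus).
Slc2a1: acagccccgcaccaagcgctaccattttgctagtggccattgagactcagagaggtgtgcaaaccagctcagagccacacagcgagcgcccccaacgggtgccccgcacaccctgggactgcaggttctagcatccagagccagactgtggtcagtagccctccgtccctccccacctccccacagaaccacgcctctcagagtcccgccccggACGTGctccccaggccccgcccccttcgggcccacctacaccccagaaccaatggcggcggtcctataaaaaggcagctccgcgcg
Aldoc: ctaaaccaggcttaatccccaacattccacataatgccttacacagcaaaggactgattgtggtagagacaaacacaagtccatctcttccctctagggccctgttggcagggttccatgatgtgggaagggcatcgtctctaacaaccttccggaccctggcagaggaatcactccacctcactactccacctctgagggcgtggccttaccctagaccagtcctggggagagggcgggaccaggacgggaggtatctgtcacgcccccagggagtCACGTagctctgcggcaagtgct
Ldha: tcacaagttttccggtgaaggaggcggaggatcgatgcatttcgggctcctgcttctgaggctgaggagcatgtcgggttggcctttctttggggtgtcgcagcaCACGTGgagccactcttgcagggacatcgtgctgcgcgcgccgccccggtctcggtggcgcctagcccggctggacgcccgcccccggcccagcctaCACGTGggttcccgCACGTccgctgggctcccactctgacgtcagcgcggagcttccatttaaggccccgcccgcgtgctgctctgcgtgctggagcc
Pfkp: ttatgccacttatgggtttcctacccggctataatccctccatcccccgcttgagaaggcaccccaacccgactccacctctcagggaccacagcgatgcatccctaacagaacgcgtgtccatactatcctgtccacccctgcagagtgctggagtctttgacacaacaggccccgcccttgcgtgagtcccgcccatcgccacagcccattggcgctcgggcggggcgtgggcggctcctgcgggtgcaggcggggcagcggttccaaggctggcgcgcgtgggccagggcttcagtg
The windows of Slc2a1 and Aldoc each hold 1 match, that of Ldha holds the E-box at 2 places and a further core, and that of Pfkp holds none. Aldoc and Ldha each have another listed start, whose windows hold no match. The genes shown do not stand for the rest. The window of Pfkl, also higher in EpiSCs than in EpiLCs, holds 0 cores, and that of Hk2, lower in EpiSCs than in 2i ESCs, holds 2. The core was in a window of 58.3% of the genes higher in EpiSCs than in EpiLCs and of 47.1% of the other tested pathway genes.

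Of the 2 glucose transporters, Slc2a1 (GLUT1, the widely expressed transporter) was highest in EpiSCs, while Slc2a3 (GLUT3, a high-affinity transporter) was much lower in MEFs than in every pluripotent group. Slc2a1 measured 14.99 and 15.31 in EpiSCs, 14.26 and 14.22 in EpiLCs and 14.20 and 14.22 in 2i ESCs. In the other groups it measured 12.42 and 12.38 in MEFs, 13.60 and 13.56 in single-reporter ESCs, 13.21 and 13.11 in RFP-positive serum ESCs and 13.21 and 13.27 in RFP-negative serum ESCs. The array pairs of EpiSCs, of MEFs and of single-reporter ESCs lay apart from those of every other group, whereas EpiLC and 2i arrays lay next to each other. Slc2a1 differed by 0.94 log2 (95% interval 0.72 to 1.16, limma adjusted p = 1.9e-05) between EpiSCs and 2i ESCs and by 0.97 (0.75 to 1.20, adjusted p = 5.2e-05) between 2i ESCs and RFP-negative serum ESCs. EpiLCs differed from 2i ESCs by 0.03 (-0.20 to 0.25, adjusted p = 0.84) and were thus not separated from them, and from RFP-positive serum ESCs by 1.08 (0.86 to 1.30, adjusted p = 1.2e-05). The arrays gave Slc2a3 levels of 15.19 and 15.38 in EpiSCs, 15.54 and 15.50 in EpiLCs and 15.25 and 15.17 in 2i ESCs, and of 8.85 and 8.77 in MEFs, 14.26 and 14.29 in single-reporter ESCs, 14.93 and 15.05 in RFP-positive serum ESCs and 15.09 and 14.96 in RFP-negative serum ESCs. MEFs were 44.3-fold lower than single-reporter ESCs in Slc2a3 (-5.47 log2, interval -5.67 to -5.27, adjusted p = 4.9e-11), the largest difference of any pathway gene in any comparison. Among pluripotent groups the Slc2a3 means spanned 1.24 log2.

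**Figure D1:**
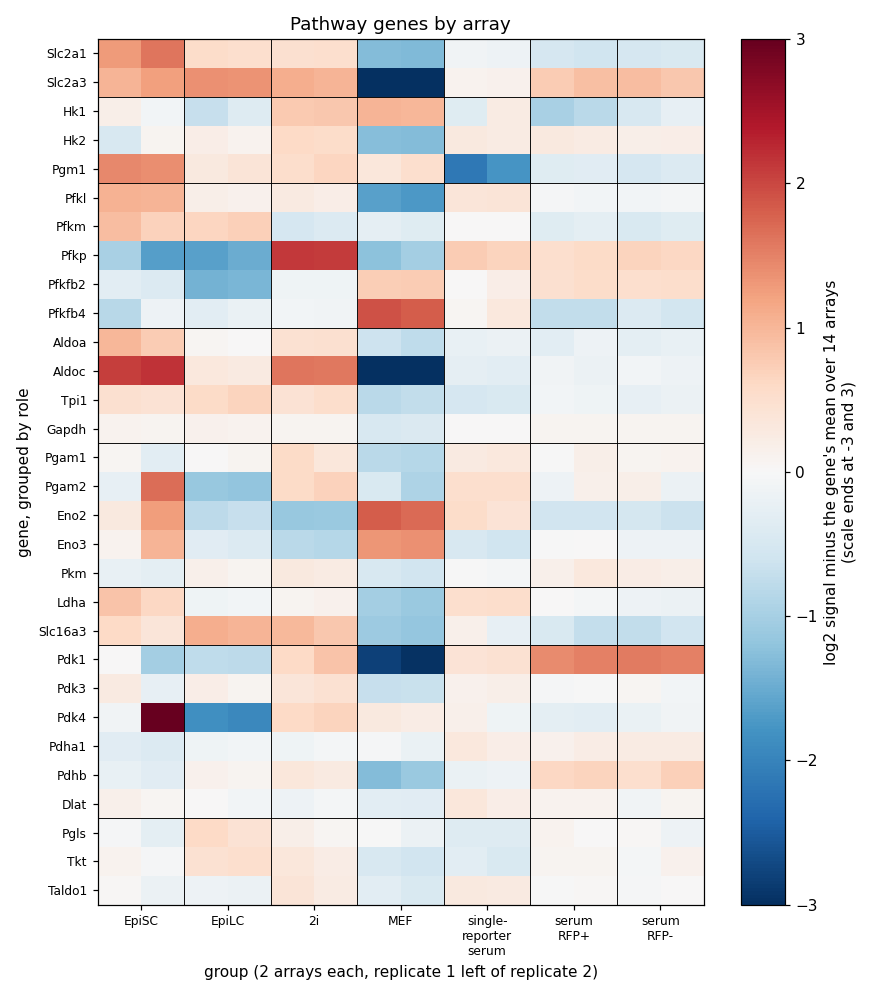
Heat map of the 30 tested pathway genes (rows, grouped by role) on the 14 arrays (columns, 2 per group). Colour gives the log2 signal minus the gene's mean over all arrays, with red above and blue below it and the scale ending at -3 and 3. MEFs are low in Slc2a3 and Aldoc, 2i ESCs are high in Pfkp, and EpiSC replicate 2 differs from replicate 1 in Pdk4 and Pgam2.

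The first steps were carried by hexokinases with different profiles. Signals of Hk1 were 6.82 and 6.55 in EpiSCs, 5.94 and 6.24 in EpiLCs and 7.42 and 7.45 in 2i ESCs. The remaining arrays gave 7.66 and 7.64 in MEFs, 6.29 and 6.89 in single-reporter ESCs, 5.68 and 5.83 in RFP-positive serum ESCs and 6.16 and 6.40 in RFP-negative serum ESCs. Hk1, the hexokinase of most adult tissues, was higher in 2i ESCs and MEFs than in the other groups, with no overlap. It differed by -1.34 (-1.77 to -0.92, adjusted p = 2e-04) between EpiLCs and 2i ESCs and by 1.15 (0.73 to 1.58, adjusted p = 0.00099) between 2i ESCs and RFP-negative serum ESCs, and by -0.62 and 0.55 when no background was subtracted. Hk2 was at 13.78 and 14.34 in EpiSCs, 14.46 and 14.36 in EpiLCs and 14.85 and 14.82 in 2i ESCs. It was at 12.99 and 12.96 in MEFs, 14.56 and 14.50 in single-reporter ESCs, 14.56 and 14.51 in RFP-positive serum ESCs and 14.44 and 14.46 in RFP-negative serum ESCs. Hk2, the inducible hexokinase, fell in MEFs by 1.55 log2 relative to single-reporter ESCs (adjusted p = 3.8e-06, limma), and the pluripotent groups lay within 0.77 log2 of each other. Pgm1 makes glucose 6-phosphate from the glucose 1-phosphate of glycogen. Pgm1 measured 12.84 and 12.79 in EpiSCs, 11.70 and 11.78 in EpiLCs and 11.93 and 12.04 in 2i ESCs. In the other groups it measured 11.74 and 11.92 in MEFs, 9.26 and 9.65 in single-reporter ESCs, 11.04 and 11.07 in RFP-positive serum ESCs and 10.89 and 10.996 in RFP-negative serum ESCs. EpiSCs were the highest and single-reporter ESCs the lowest, and neither pair overlapped another group. Pgm1 differed by 1.07 (0.80 to 1.35, adjusted p = 5.9e-05) between EpiSCs and EpiLCs, by 1.05 (0.77 to 1.32, adjusted p = 0.00012) between 2i ESCs and RFP-negative serum ESCs, and by -1.49 (-1.77 to -1.22, adjusted p = 4.5e-06) between single-reporter and RFP-negative serum ESCs.

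Phosphofructokinase, the committing enzyme of glycolysis, showed the clearest division among its isoforms. Pfkp (platelet type) was highest in 2i ESCs and lowest in EpiLCs, EpiSCs and MEFs, whereas Pfkm (muscle type) was highest in EpiSCs and EpiLCs. The arrays gave Pfkp levels of 9.75 and 9.08 in EpiSCs, 9.10 and 9.25 in EpiLCs and 12.85 and 12.83 in 2i ESCs, and of 9.50 and 9.71 in MEFs, 11.50 and 11.40 in single-reporter ESCs, 11.23 and 11.30 in RFP-positive serum ESCs and 11.39 and 11.36 in RFP-negative serum ESCs. The 2i arrays lay above all others, the serum ESC arrays in the middle, and the EpiLC and MEF arrays at the bottom, both within or next to the range of the EpiSC arrays. Pfkp was 12.7-fold lower in EpiLCs than in 2i ESCs (-3.66 log2, interval -4.06 to -3.27, adjusted p = 1.1e-07) and 10.7-fold lower in EpiSCs than in 2i ESCs (-3.42 log2, interval -3.82 to -3.03, adjusted p = 1.3e-07). These comparisons share the 2i arrays. EpiLCs differed from RFP-positive serum ESCs by -2.09 (-2.49 to -1.69, adjusted p = 7.1e-06), and 2i ESCs differed from RFP-negative serum ESCs by 1.47 (1.07 to 1.86, adjusted p = 0.00015). Another Pfkp probe gave differences of -3.54, -3.05, -1.92 and 1.38 log2 in these 4 comparisons.

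Signals of Pfkm were 12.67 and 12.44 in EpiSCs, 12.38 and 12.46 in EpiLCs and 11.24 and 11.34 in 2i ESCs. The remaining arrays gave 11.48 and 11.37 in MEFs, 11.76 and 11.76 in single-reporter ESCs, 11.37 and 11.45 in RFP-positive serum ESCs and 11.29 and 11.38 in RFP-negative serum ESCs. EpiSC and EpiLC arrays overlapped and lay above all other groups. Pfkm differed by 1.13 (0.92 to 1.33, adjusted p = 4e-06) between EpiLCs and 2i ESCs and by 1.27 (1.06 to 1.47, adjusted p = 1.3e-06) between EpiSCs and 2i ESCs, whereas the other detected probes gave 1.27 and 0.64 log2 between EpiLCs and 2i ESCs and 1.08 and -0.20 between EpiSCs and 2i ESCs. The direction in EpiSCs thus depended on the probe. Pfkl was at 14.46 and 14.45 in EpiSCs, 13.60 and 13.54 in EpiLCs and 13.70 and 13.61 in 2i ESCs. It was at 11.78 and 11.69 in MEFs, 13.77 and 13.80 in single-reporter ESCs, 13.39 and 13.34 in RFP-positive serum ESCs and 13.33 and 13.36 in RFP-negative serum ESCs. Pfkl, the liver type, differed by 0.88 (0.73 to 1.04, adjusted p = 5.3e-06) between EpiSCs and EpiLCs and by -2.05 (-2.20 to -1.90, adjusted p = 3.6e-09) between MEFs and single-reporter ESCs. Another, dimmer Pfkl probe gave 0.34 log2 in MEFs against single-reporter ESCs, so the probes disagree there.

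The bifunctional enzymes Pfkfb2 and Pfkfb4 make and break down fructose 2,6-bisphosphate, an activator of phosphofructokinase. Pfkfb2 measured 8.62 and 8.51 in EpiSCs, 7.52 and 7.56 in EpiLCs and 8.80 and 8.81 in 2i ESCs. In the other groups it measured 9.67 and 9.70 in MEFs, 8.94 and 9.14 in single-reporter ESCs, 9.41 and 9.49 in RFP-positive serum ESCs and 9.44 and 9.47 in RFP-negative serum ESCs. The EpiLC arrays lay below every other group. Pfkfb2 differed by -1.27 (-1.45 to -1.09, adjusted p = 8.4e-07) between EpiLCs and 2i ESCs, by -1.91 (-2.09 to -1.73, adjusted p = 9.3e-08) between EpiLCs and RFP-positive serum ESCs and by 1.03 (0.85 to 1.21, adjusted p = 6.4e-06) between EpiSCs and EpiLCs. The arrays gave Pfkfb4 levels of 8.01 and 8.70 in EpiSCs, 8.52 and 8.65 in EpiLCs and 8.75 and 8.75 in 2i ESCs, and of 10.76 and 10.66 in MEFs, 8.90 and 9.16 in single-reporter ESCs, 8.11 and 8.09 in RFP-positive serum ESCs and 8.42 and 8.29 in RFP-negative serum ESCs. Pfkfb4, which is also a hypoxia-response gene, was highest in MEFs, which exceeded single-reporter ESCs by 1.68 (1.26 to 2.09, adjusted p = 1.5e-05).

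**Figure D2:**
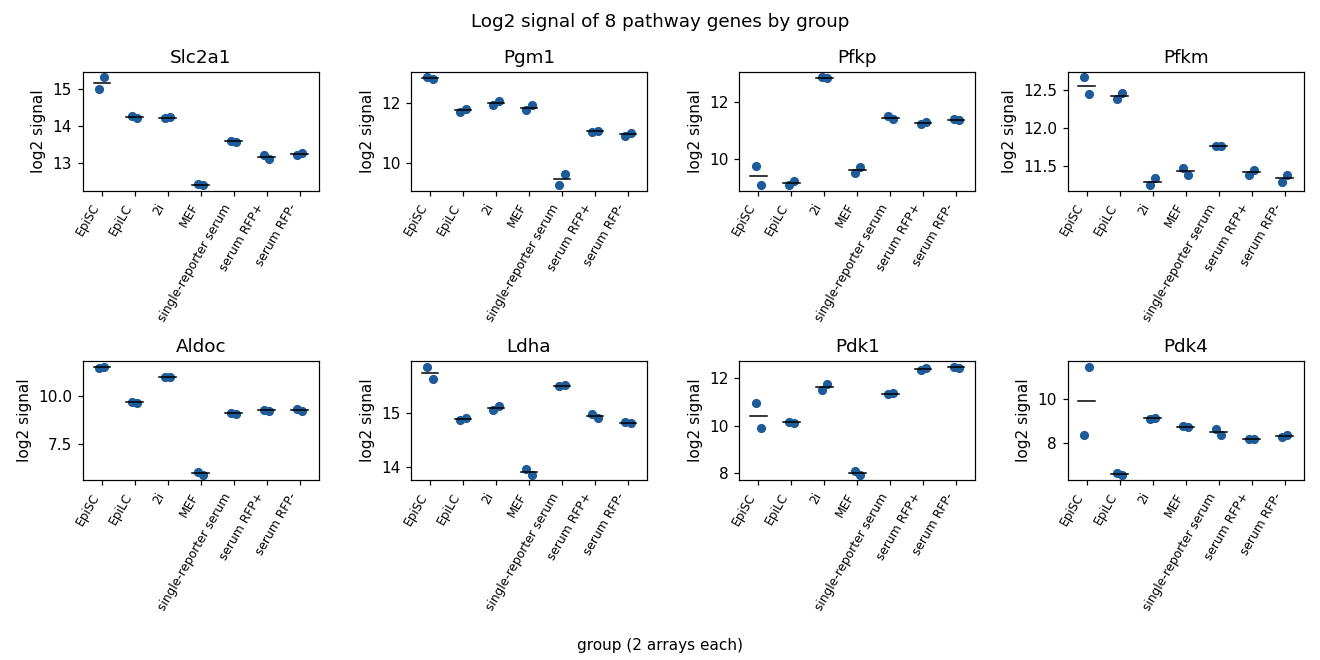
Log2 signal of 8 pathway genes by group. Points are single arrays (2 per group), horizontal lines are group means, and each panel has its own vertical axis, which does not start at 0. The 2 EpiSC points of Pdk4 are 3.10 log2 apart, and the Pfkp points of 2i ESCs, at 12.85 and 12.83, lie above all others.

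In the middle of the pathway the brain-type aldolase Aldoc varied most and the ubiquitous genes least. Signals of Aldoc were 11.48 and 11.56 in EpiSCs, 9.71 and 9.67 in EpiLCs and 11.01 and 10.996 in 2i ESCs. The remaining arrays gave 6.03 and 5.89 in MEFs, 9.14 and 9.09 in single-reporter ESCs, 9.30 and 9.22 in RFP-positive serum ESCs and 9.32 and 9.24 in RFP-negative serum ESCs. EpiSCs were highest, 2i ESCs next and EpiLCs between these and the serum ESCs, with no overlap among them, and neither MEF array reached detection. Aldoc differed by 1.83 (1.66 to 2.00, adjusted p = 9.6e-08) between EpiSCs and EpiLCs, by -1.31 (-1.48 to -1.14, adjusted p = 3.7e-07) between EpiLCs and 2i ESCs and by 1.72 (1.55 to 1.89, adjusted p = 2.9e-07) between 2i ESCs and RFP-negative serum ESCs. In MEFs it was at least 7.66-fold lower than in single-reporter ESCs (adjusted p = 4.8e-10), with a fitted difference of -1.85 log2 without background correction. For this bound the dim arrays were given their dimmest detected signal, or their own value where that was higher. Aldoa, the muscle-type and widely expressed aldolase, moved less: 0.84 (0.62 to 1.05, adjusted p = 6.2e-05) between EpiSCs and EpiLCs and 0.72 (0.51 to 0.94, adjusted p = 0.00027) between 2i ESCs and RFP-negative serum ESCs. Tpi1, triose phosphate isomerase, rose by 0.70 (0.54 to 0.85, adjusted p = 4.4e-05) in 2i ESCs relative to RFP-negative serum ESCs. Gapdh, which oxidises the triose phosphate, lay between 15.83 and 15.94 on all pluripotent arrays and at 15.34 and 15.38 in MEFs, and when arrays were instead scaled to equal medians it differed by -0.44 log2 between EpiSCs and 2i ESCs and by 0.31 between 2i and RFP-negative serum ESCs. Its scanner signal reached 94.9% of the array's brightest probe, Ldha's 90.7% and Pkm's 78.2%, so differences in these genes may be compressed at the top of the scale.

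Of the late steps, the enolases of muscle and nerve were highest in MEFs, and the phosphoglycerate mutase Pgam1 and pyruvate kinase Pkm varied less than these. Eno2 was at 10.14 and 11.09 in EpiSCs, 9.05 and 9.15 in EpiLCs and 8.69 and 8.73 in 2i ESCs. It was at 11.66 and 11.54 in MEFs, 10.38 and 10.25 in single-reporter ESCs, 9.26 and 9.25 in RFP-positive serum ESCs and 9.30 and 9.19 in RFP-negative serum ESCs. Eno3 measured 9.89 and 10.81 in EpiSCs, 9.44 and 9.37 in EpiLCs and 8.98 and 8.93 in 2i ESCs. In the other groups it measured 11.10 and 11.15 in MEFs, 9.30 and 9.19 in single-reporter ESCs, 9.77 and 9.80 in RFP-positive serum ESCs and 9.63 and 9.63 in RFP-negative serum ESCs. Eno2 (neuron type) and Eno3 (muscle type) were lowest in 2i ESCs. EpiSCs lay above 2i ESCs and EpiLCs on both arrays, although their own arrays were 0.95 and 0.92 log2 apart. Eno2 differed by 1.91 (1.38 to 2.43, adjusted p = 5.3e-05) between EpiSCs and 2i ESCs, and Eno3 by 1.40 (0.90 to 1.90, adjusted p = 0.00033). In MEFs against single-reporter ESCs the differences were 1.29 (0.77 to 1.81, adjusted p = 0.00054) for Eno2 and 1.88 (1.38 to 2.38, adjusted p = 2.6e-05) for Eno3. Without EpiSC replicate 2, the Eno3 difference between EpiSCs and EpiLCs was 0.48, against 0.94 with it.

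The arrays gave Pgam1 levels of 11.90 and 11.53 in EpiSCs, 11.87 and 11.92 in EpiLCs and 12.42 and 12.20 in 2i ESCs, and of 11.06 and 10.998 in MEFs, 12.12 and 12.18 in single-reporter ESCs, 11.84 and 12.02 in RFP-positive serum ESCs and 11.93 and 11.95 in RFP-negative serum ESCs. Pgam1 fell by 1.12 log2 in MEFs relative to single-reporter ESCs (adjusted p = 1.5e-05), and its pluripotent means spanned 0.60 log2. Signals of Pgam2 were 6.40 and 8.31 in EpiSCs, 5.51 and 5.45 in EpiLCs and 7.21 and 7.32 in 2i ESCs. The remaining arrays gave 6.17 and 5.70 in MEFs, 7.14 and 7.14 in single-reporter ESCs, 6.49 and 6.78 in RFP-positive serum ESCs and 6.82 and 6.47 in RFP-negative serum ESCs. Pgam2, the muscle-type mutase, was not detected on either EpiLC or MEF array. It was at least 2.78-fold lower in EpiLCs than in 2i ESCs (adjusted p = 0.0086), at least 2.96-fold higher in EpiSCs than in EpiLCs (adjusted p = 0.0068) and at least 1.95-fold lower in MEFs than in single-reporter ESCs (adjusted p = 0.037), a call lost in 10 of 23 alternatives, among them no background correction and leaving out any of the 4 arrays compared. The EpiSC mean of Pgam2 rests on arrays 1.91 log2 apart: without EpiSC replicate 2, the difference between EpiSCs and EpiLCs was 0.92 and that between EpiSCs and 2i ESCs was -0.87, against 0.09 with it. Pkm, whose isoforms the probe does not separate here, differed by -0.53 (-0.71 to -0.36, adjusted p = 0.00017) between EpiSCs and 2i ESCs and -0.48 (-0.65 to -0.31, adjusted p = 0.00023) between MEFs and single-reporter ESCs.

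Lactate is made from pyruvate and exported at the end of the pathway. Ldha was at 15.84 and 15.61 in EpiSCs, 14.86 and 14.90 in EpiLCs and 15.05 and 15.12 in 2i ESCs. It was at 13.96 and 13.86 in MEFs, 15.49 and 15.50 in single-reporter ESCs, 14.98 and 14.91 in RFP-positive serum ESCs and 14.82 and 14.80 in RFP-negative serum ESCs. Ldha, the enzyme that makes lactate, was highest in EpiSCs and lowest in MEFs without overlap with other groups, and single-reporter ESCs lay above the remaining ESCs and EpiLCs. It differed by 0.85 (0.65 to 1.04, adjusted p = 3.1e-05) between EpiSCs and EpiLCs, by 0.64 (0.45 to 0.84, adjusted p = 0.00011) between EpiSCs and 2i ESCs and by -1.58 (-1.78 to -1.39, adjusted p = 8.3e-08) between MEFs and single-reporter ESCs. Slc16a3 was at 6.79 and 6.55 in EpiSCs, 7.29 and 7.21 in EpiLCs and 7.17 and 7.01 in 2i ESCs. It was at 5.11 and 5.03 in MEFs, 6.35 and 5.95 in single-reporter ESCs, 5.74 and 5.49 in RFP-positive serum ESCs and 5.45 and 5.63 in RFP-negative serum ESCs. Slc16a3 (MCT4, a lactate exporter) was near background: its probe was detected on both arrays in EpiSCs, EpiLCs, 2i ESCs and single-reporter ESCs, on 1 RFP-positive serum array and on neither RFP-negative serum or MEF array. By that probe Slc16a3 was at least 2.71-fold higher in 2i ESCs than in RFP-negative serum ESCs (adjusted p = 3.4e-05), and it differed by 1.64 (1.31 to 1.97, adjusted p = 1e-05) between EpiLCs and RFP-positive serum ESCs, of which 1 array measured it. Without background correction these differences were 0.64 and 0.69 log2. Another detected probe of Slc16a3 gave 0.32 and -0.14 log2 in these comparisons, so the probes disagree.

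Of the kinases that switch off pyruvate dehydrogenase, Pdk1 and Pdk4 spanned 2.31 and 3.32 log2 among the pluripotent groups. Pdk1 measured 10.93 and 9.90 in EpiSCs, 10.15 and 10.13 in EpiLCs and 11.51 and 11.75 in 2i ESCs. In the other groups it measured 8.11 and 7.94 in MEFs, 11.31 and 11.36 in single-reporter ESCs, 12.33 and 12.41 in RFP-positive serum ESCs and 12.48 and 12.42 in RFP-negative serum ESCs. Pdk1 was highest in the serum ESCs of the double-reporter line, lower in 2i ESCs and lowest in MEFs. EpiLC and EpiSC arrays overlapped each other and lay below all ESC arrays. Pdk1 differed by -2.23 (-2.80 to -1.67, adjusted p = 5.1e-05) between EpiLCs and RFP-positive serum ESCs, by -1.49 (-2.06 to -0.92, adjusted p = 0.00069) between EpiLCs and 2i ESCs, and by -3.31 (-3.88 to -2.74, adjusted p = 9.7e-07) between MEFs and single-reporter ESCs. Between EpiSCs and 2i ESCs the difference was -1.22 (-1.79 to -0.65, adjusted p = 0.0019), and -0.70 without EpiSC replicate 2. The arrays gave Pdk4 levels of 8.36 and 11.46 in EpiSCs, 6.63 and 6.55 in EpiLCs and 9.06 and 9.14 in 2i ESCs, and of 8.77 and 8.70 in MEFs, 8.63 and 8.35 in single-reporter ESCs, 8.18 and 8.15 in RFP-positive serum ESCs and 8.27 and 8.37 in RFP-negative serum ESCs. Pdk4 was lowest in EpiLCs, whose arrays lay below all others. The EpiSC arrays were the farthest apart of any gene here: replicate 2 lay above all other arrays and replicate 1 within the range of the serum ESCs. All groups share 1 spread in the fit, so this gap widened the Pdk4 intervals of every comparison. Between EpiLCs and RFP-positive serum ESCs the Pdk4 difference of -1.58 was not called, but it was called with both EpiSC arrays left out. Pdk4 differed by -2.51 (-4.12 to -0.90, adjusted p = 0.014) between EpiLCs and 2i ESCs, a call lost when any of the 4 arrays compared was left out, and by -1.59 without background correction. It differed by 3.32 (1.72 to 4.93, adjusted p = 0.0031) between EpiSCs and EpiLCs, and by 1.77 without EpiSC replicate 2. Between EpiSCs and 2i ESCs the difference of 0.81 (-0.80 to 2.42, adjusted p = 0.34) did not pass the test. It was -0.74 without EpiSC replicate 2 and 2.36 without EpiSC replicate 1, so its direction depended on the array kept.

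Pdk3 and the subunits of the complex varied less. Pdk3 means lay within 0.43 log2 among pluripotent groups, those of Pdha1 (the E1 alpha subunit) within 0.63, those of Pdhb (E1 beta) within 0.92 and those of Dlat (the E2 core) within 0.37. Signals of Pdhb were 11.23 and 11.10 in EpiSCs, 11.58 and 11.52 in EpiLCs and 11.78 and 11.72 in 2i ESCs. The remaining arrays gave 10.13 and 10.32 in MEFs, 11.25 and 11.28 in single-reporter ESCs, 12.07 and 12.10 in RFP-positive serum ESCs and 11.94 and 12.15 in RFP-negative serum ESCs. Pdhb was highest in the serum ESCs of the double-reporter line and lowest in MEFs, with a difference of -1.04 (-1.25 to -0.83, adjusted p = 3.1e-06) between MEFs and single-reporter ESCs. Another Pdhb probe gave 1.55 log2 in that comparison, so its direction rests on the choice of probe. Of the pentose phosphate branch, Pgls (lactonase) means spanned 0.90, Tkt (transketolase) 0.87 and Taldo1 (transaldolase) 0.48 log2 among pluripotent groups.

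Over the 6 pluripotent groups, the median range of the group means was 1.12 log2 for the 30 pathway genes and 1.20 for all genes tested, and 17 of the 30 (56.7%) spanned at least 1 log2, against 60% of all genes. By that measure the pathway did not vary more than the array as a whole. The following comparisons count genes with a limma adjusted p under 0.05 (Benjamini-Hochberg, over all 10481 genes). Each count is set beside the share of all genes called. Every call of a pathway gene was recomputed under 23 alternative settings (22 for comparisons with EpiSCs), and a call is said to be lost where the gene no longer passed.

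EpiLCs had lower levels than 2i ESCs in 11 pathway genes and higher levels in 3. The lower genes were Hk1, Hk2, Pfkp, Pfkfb2, Aldoa, Aldoc, Pgam1, Pgam2, Pdk1, Pdk4 and Taldo1, and the higher ones Slc2a3, Pfkm and Pgls. In all, 14 of 30 (46.7%) were called, against 55.1% of all genes. The 36.7% called lower stands beside 27.6% of all genes, and the 10% called higher beside 27.5%. The median difference was -0.18 log2, against -0.01 over all genes. Of the 14 calls 9 held in every alternative, while Hk2 and Pdk4 lost theirs in 4, Slc2a3 and Pgls in 3 and Pgam1 in 2. The mean of the fibroblast markers was also lower in EpiLCs, at 6.40 and 6.39 against 8.08 and 8.11 in 2i ESCs. Not every marker followed it: Twist2 was at 6.90 and 6.70 in EpiLCs and at 5.85 and 6.12 in 2i ESCs. The part of these markers in the result was not tested. Without EpiLC replicate 1 the count was 9, and the split depended on scaling: 1 was higher and 18 were lower when arrays were scaled to equal medians, a scaling that by itself moved the median of all genes by -0.11 log2.

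2i ESCs had higher levels than RFP-negative serum ESCs in 13 pathway genes and lower levels in 5. The higher ones covered every stage except the pyruvate dehydrogenase subunits: Slc2a1, Hk1, Pgm1, Pfkl, Pfkp, Aldoa, Aldoc, Tpi1, Pgam1, Ldha, Slc16a3, Pdk3 and Taldo1. Pfkfb2, Eno3, Pdk1, Pdha1 and Pdhb fell. The 18 of 30 called (60%) compare with 39.7% of all genes, and by direction 43.3% were higher against 19.7% of all genes and 16.7% lower against 20% of all genes. The median difference was 0.32 log2, against 0.01 over all genes. Of the 18 calls 10 held in every alternative, while Pdk3 lost its call in 13, Pgam1 and Eno3 in 10 each, Pdhb in 6, Ldha in 5, Pdk1 in 4, Taldo1 in 3 and Pdha1 in 2. Without 2i replicate 1, 10 were called (9 higher, 1 lower), and with equal medians 18 were higher and 3 lower.

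EpiSCs had higher levels than 2i ESCs in 9 pathway genes and lower levels in 14. The higher ones were Slc2a1, Pgm1, Pfkl, Pfkm, Aldoa, Aldoc, Eno2, Eno3 and Ldha, and the lower ones included Hk1, Hk2, Pfkp, Pgam1, Pkm, Pdk1, Pdha1, Pdhb and all 3 tested genes of the pentose phosphate branch. The 23 of 30 called (76.7%) compare with 66.3% of all genes. The 30% higher stands beside 32.4%, and the 46.7% lower beside 33.9%. The calls of the pentose phosphate branch were unstable: Pgls (-0.29 log2) lost its call in 15 of 22 alternatives, Tkt lost its call in 10 and turned direction in 1, and Taldo1 lost its call in 1. Of the 23 calls 13 held in every alternative. When the model held only these 2 groups, 13 genes were called. The mean of the extraembryonic endoderm markers was also higher in EpiSCs, at 8.29 and 7.72 against 5.98 and 5.91 in 2i ESCs. Not every marker followed it: Sox7 was at 6.16 and 7.22 in EpiSCs and at 6.98 and 6.99 in 2i ESCs. The part of these markers in the result was not tested.

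EpiSCs had higher levels than EpiLCs in 12 pathway genes, namely Slc2a1, Hk1, Pgm1, Pfkl, Pfkfb2, Aldoa, Aldoc, Pgam2, Eno2, Eno3, Ldha and Pdk4, and lower levels in 7, namely Slc2a3, Pkm, Slc16a3, Pdha1, Pdhb, Pgls and Tkt (0.15 log2 for Tkt when its detected probes were averaged, against -0.45). The 19 of 30 called (63.3%) compare with 56.4% of all genes, the 40% higher with 27.9% and the 23.3% lower with 28.5%. Of the 19 calls 10 held in every alternative, and Slc2a3 lost its call in 16 of 22. With only these 2 groups in the model, 10 were called. The extraembryonic endoderm marker means were 8.29 and 7.72 in EpiSCs and 6.41 and 6.37 in EpiLCs, and the part of these markers in the counts was not tested. The HIF core was in a window of 7 of the 12 genes called higher (58.3%) and of 8 of the 17 other tested genes with a window (47.1%). No test was made of that difference.

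**Figure D3:**
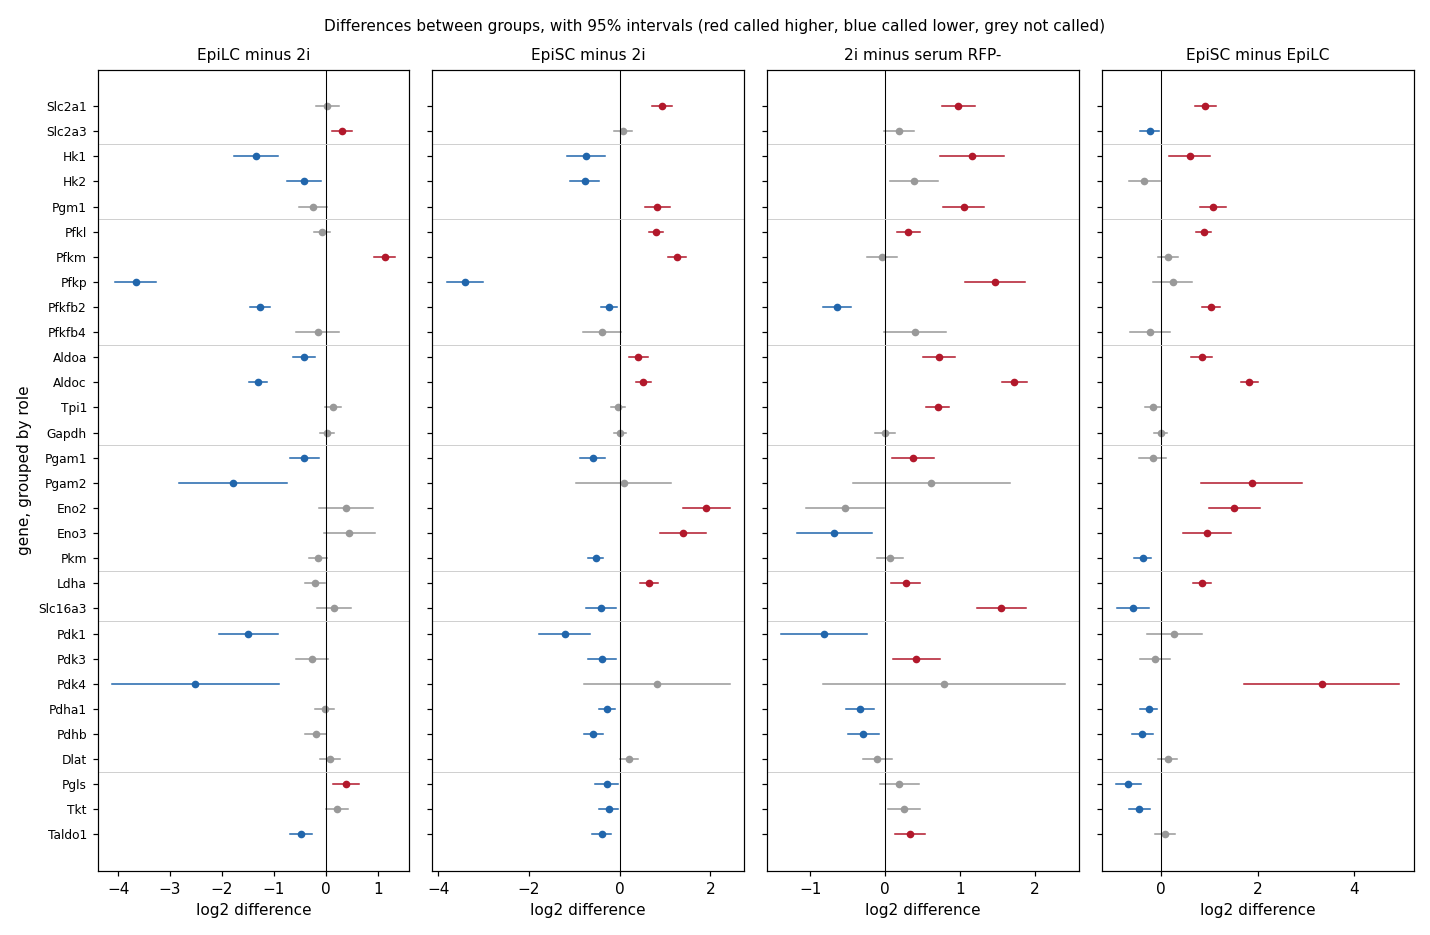
Log2 differences of the 30 pathway genes in 4 comparisons, with points for the estimates and lines for 95% intervals from the limma model. Red marks genes called higher in the group named first in the panel title, blue those called lower and grey those not called. Pfkp lies at -3.66 and -3.42 against 2i ESCs and at 1.47 in 2i ESCs against RFP-negative serum ESCs.

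EpiLCs had higher levels than RFP-positive serum ESCs in 12 pathway genes, namely both transporters, Pgm1, Pfkl, Pfkm, Pfkfb4, Aldoa, Aldoc, Tpi1, Slc16a3, Pgls and Tkt, and lower levels in 5, Pfkp, Pfkfb2, Pdk1, Pdha1 and Pdhb. The 17 of 30 called (56.7%) compare with 55% of all genes, the 40% higher with 28.3% and the 16.7% lower with 26.7%. Of the 17 calls 11 held in every alternative, while Pfkfb4 (adjusted p = 0.049) lost its call in 14 of 23, Pfkl in 7 and Aldoa in 5. The fibroblast marker means were 6.40 and 6.39 in EpiLCs and 8.13 and 8.15 in RFP-positive serum ESCs, and their part was not tested. The median difference was 0.00 log2, against 0.02 over all genes.

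RFP-positive and RFP-negative serum ESCs, both in serum and split by the proximal-enhancer reporter, had no pathway gene called by limma, against 0.124% of all genes (0% higher and 0.124% lower), and 1 of 30 had an unadjusted p under 0.05. That was Hk1, at -0.53 (-0.95 to -0.10, adjusted p = 0.71). The median absolute difference of the pathway genes was 0.07 log2 and their 95% intervals reached a median of 0.22 to either side. These intervals are not adjusted for the 10481 genes tested. Differences larger than 0.22, such as that of Hk1, could therefore also go uncalled with 2 arrays per group.

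MEFs had lower levels than single-reporter ESCs in 21 pathway genes and higher levels in 7, Hk1, Pgm1, Pfkfb2, Pfkfb4, Eno2, Eno3 and Pgls. The 28 of 30 called (93.3%) compare with 78.3% of all genes, the 70% lower with 38.7% and the 23.3% higher with 39.6%. The median difference was -0.54 log2, against 0.00 over all genes. Of the 28 calls 23 held in every alternative, and Pgam2 lost its call in 10 and Pgls in 9. Among all 8 comparisons this one had the largest share called lower. Some of the lower calls depend on the probe. Another detected probe was higher in MEFs for Pfkl (0.34 log2), Tpi1 (0.17), Slc16a3 (0.72) and Pdhb (1.55). The Slc16a3 probe used was detected on neither MEF array. The fibroblast marker means were 12.23 and 12.37 in MEFs and 9.96 and 10.04 in single-reporter ESCs, the highest of the pluripotent groups. Lum went against this mean, at 8.33 and 8.25 in MEFs and 11.07 and 10.97 in single-reporter ESCs. The part of these markers in the counts was not tested.

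Single-reporter ESCs had 9 pathway genes higher and 9 lower than RFP-negative serum ESCs, although both were grown in serum with LIF. They differed in cell line and also in sorting: only the RFP-negative cells had a sort gate in the labels. The parts of line and sorting cannot be told apart. Eno2 (1.07 log2, interval 0.55 to 1.59, adjusted p = 0.003), Ldha (0.68 log2, interval 0.49 to 0.88, adjusted p = 9.3e-05) and Slc16a3 were among the higher ones, and Pgm1, Pdk1 (-1.11 log2, interval -1.68 to -0.54, adjusted p = 0.0038) and Slc2a3 (-0.75 log2, interval -0.95 to -0.55, adjusted p = 5.9e-05) among the lower ones. The 18 of 30 called (60%) compare with 58.5% of all genes, 30% higher with 29% and 30% lower with 29.5%. Of the 18 calls 9 held in every alternative. The groups also differed in the mean of the fibroblast markers, at 9.96 and 10.04 in single-reporter ESCs and 8.15 and 8.20 in RFP-negative serum ESCs. Not every marker followed it: S100a4 was at 5.69 and 6.94 in single-reporter ESCs and at 7.74 and 7.76 in RFP-negative serum ESCs. The part of these markers in the result was not tested.

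**Figure D4:**
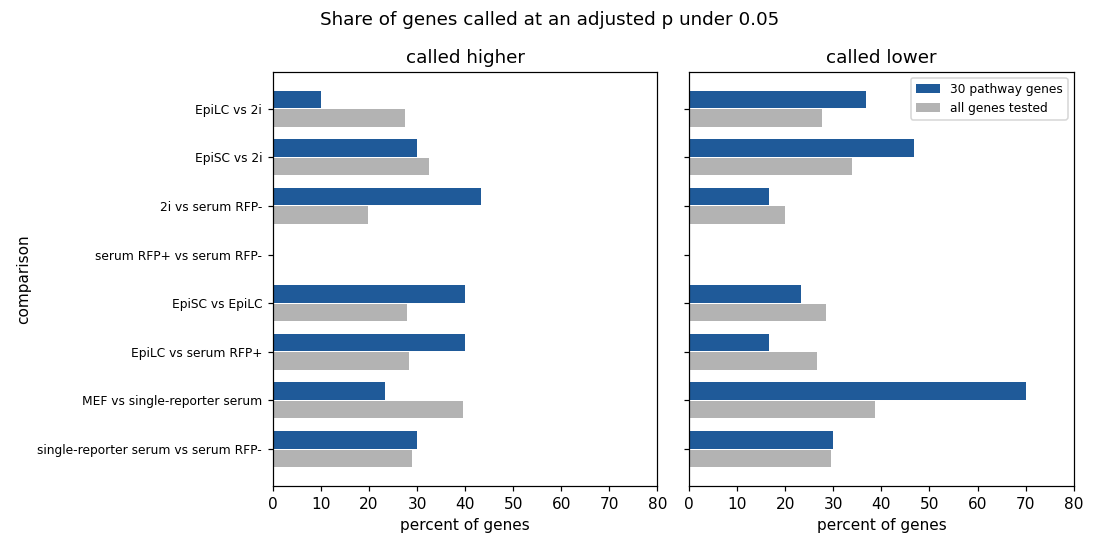
Percent of the 30 pathway genes (blue bars) and of the 10481 genes tested (grey bars) called higher (left) or lower (right) at an adjusted p under 0.05 in each of 8 comparisons, the group named first being set against the other. In 2i ESCs against RFP-negative serum ESCs 43.3% of the pathway genes and 19.7% of all genes were higher, and in MEFs against single-reporter ESCs 70% and 38.7% were lower.

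Genes around the pathway were counted in the same fit, and these lists were not recounted under the alternative settings. Of 54 further genes of sugar and pyruvate metabolism, 32 were tested. In EpiLCs against 2i ESCs 9 were higher (28.1%, against 27.5% of all genes) and 11 lower (34.4%, against 27.6%), shares near those of the array as a whole, led by Pygl, a glycogen phosphorylase (-3.32 log2, adjusted p = 2.1e-08), and Prps2, which makes the nucleotide precursor PRPP (2.04, adjusted p = 4.7e-05). In EpiSCs against EpiLCs 8 were higher (25%, against 27.9% of all genes) and 7 lower (21.9%, against 28.5%), with Pygl at 3.46 (adjusted p = 4.2e-08) and Pygb, the brain-type phosphorylase, at -1.61 (adjusted p = 5.1e-06). In 2i ESCs against RFP-negative serum ESCs 8 were higher (25%, against 19.7%) and 3 lower (9.38%, against 20%), among them Pdp2, the phosphatase that reactivates pyruvate dehydrogenase (1.09, adjusted p = 0.00013). MEFs had 14 higher (43.8%, against 39.6%) and 9 lower (28.1%, against 38.7%) than single-reporter ESCs, with malic enzyme Me1 at 3.99 (adjusted p = 2.4e-09).

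Of 18 genes of the citrate cycle and of reactions around it, 16 were tested. The list includes the carrier Slc25a1, Acly and the cytosolic enzymes Aco1, Idh1 and Mdh1, so its shares are not those of the cycle alone. In 2i ESCs against RFP-negative serum ESCs 11 were higher (68.8%, against 19.7% of all genes) and 1 was lower (6.25%, against 20%), with a median of 0.41 log2. Idh2, the mitochondrial NADP-linked isocitrate dehydrogenase, differed by 1.22 (adjusted p = 2e-04) and the citrate carrier Slc25a1 by 1.13 (adjusted p = 5.5e-06). Suclg2, a gene of the cycle itself, was the lower one, at -0.74 log2. In EpiLCs against 2i ESCs 1 was higher (6.25%, against 27.5%) and 9 were lower (56.2%, against 27.6%), with Idh2 at -1.08 (adjusted p = 0.00021). EpiLCs had 3 higher (18.8%, against 28.3%) and 1 lower (6.25%, against 26.7%) than RFP-positive serum ESCs. In EpiSCs against EpiLCs 6 were higher (37.5%, against 27.9%) and 2 lower (12.5%, against 28.5%), and Idh2 differed by 1.26 (adjusted p = 9.3e-05). MEFs had 11 higher (68.8%, against 39.6%) and 3 lower (18.8%, against 38.7%) than single-reporter ESCs. Single-reporter ESCs had 3 higher (18.8%, against 29%) and 8 lower (50%, against 29.5%) than RFP-negative serum ESCs.

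Known regulators of the pathway were counted as 28 genes, 18 tested. In EpiLCs against 2i ESCs 4 were higher (22.2%, against 27.5% of all genes) and 9 lower (50%, against 27.6%). EpiSCs had 6 higher and 6 lower than 2i ESCs (33.3% each, against 32.4% and 33.9%) and 8 higher (44.4%, against 27.9%) and 4 lower (22.2%, against 28.5%) than EpiLCs. In 2i ESCs against RFP-negative serum ESCs 5 were higher (27.8%, against 19.7%) and 9 lower (50%, against 20%). EpiLCs had 4 higher (22.2%, against 28.3%) and 10 lower (55.6%, against 26.7%) than RFP-positive serum ESCs, and MEFs 4 higher (22.2%, against 39.6%) and 11 lower (61.1%, against 38.7%) than single-reporter ESCs. Esrrb, an orphan receptor of naive ESCs, was at -5.93 in EpiLCs and -5.54 in EpiSCs against 2i ESCs (adjusted p = 7.9e-05 and 9.2e-05). Its EpiSC arrays, at 11.32 and 8.16, were far apart. Txnip, an inhibitor of glucose uptake, rose by 3.14 in EpiSCs relative to EpiLCs (adjusted p = 7.1e-09). Mlxipl (ChREBP, a glucose-sensing factor) rose by 3.66 in EpiSCs relative to 2i ESCs (adjusted p = 1.2e-07) and fell by 2.00 in 2i ESCs relative to RFP-negative serum ESCs (adjusted p = 3e-05). Myc fell below detection in 2i ESCs, with means of 5.04 in 2i ESCs and 7.09 in RFP-negative serum ESCs (adjusted p = 4.2e-05). Epas1, which encodes a HIF subunit, was at -1.41 log2 in 2i ESCs against RFP-negative serum ESCs. It was below detection in EpiLCs and EpiSCs, with means of 4.89 in EpiLCs and 8.19 in RFP-positive serum ESCs. Stat3, the LIF effector, fell by 2.04 in EpiLCs relative to 2i ESCs (adjusted p = 1.9e-07).

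Of 20 hypoxia-response genes, which include the pathway's Pfkfb4 and the regulator Egln3, 17 were tested. In EpiSCs against EpiLCs 14 were higher (82.4%, against 27.9% of all genes) and 0 lower (against 28.5%), with a median of 0.86 log2. Ndrg1 (2.67, adjusted p = 1.4e-08), Adm (adrenomedullin, 1.54, adjusted p = 0.00088), Mxi1 (1.46) and the carbonic anhydrase Car12 (1.40) had the largest differences. EpiSCs had 9 higher (52.9%, against 32.4%) and 1 lower (5.88%, against 33.9%) than 2i ESCs. 2i ESCs had 8 higher (47.1%, against 19.7%) and 0 lower (against 20%) than RFP-negative serum ESCs, with Ndrg1 at 2.47 (adjusted p = 6.6e-08) and the prolyl hydroxylase P4ha1 at 2.25. EpiLCs had 3 higher (17.6%, against 27.5%) and 7 lower (41.2%, against 27.6%) than 2i ESCs, with Ndrg1 at -2.68 (adjusted p = 6e-09), and 9 higher (52.9%, against 28.3%) and 1 lower (5.88%, against 26.7%) than RFP-positive serum ESCs. Single-reporter ESCs also had 8 higher (47.1%, against 29%) and 4 lower (23.5%, against 29.5%) than RFP-negative serum ESCs. MEFs had 11 higher (64.7%, against 39.6%) and 6 lower (35.3%, against 38.7%) than single-reporter ESCs. The oxygen level of the cultures was not used here. Between RFP-positive and RFP-negative serum ESCs no gene of these 4 lists was called by limma.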

How the data were processed

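Total RNA, amplified to biotinylated cRNA per the labels' protocols, was measured on 14 Illumina bead arrays. The authors deposited a scanner table that holds, per the file headers, 25697 probes with a signal intensity that was not normalized and a detection p-value on each array. They also deposited a table of log2 values, which equals the quantile-normalized log2 scanner signals without background correction (largest difference 5e-07, each column's median 7.529, direction and centring as in the scanner table), used as an alternative. The submitters' processing notes name GenomeStudio 2011.1, and its settings are not given in the sources used here.

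Signals were corrected and normalized with neqc (normexp from detection p-values, offset 16, quantile) in limma 3.58.1 under R 4.3.3. Of the probes, 23978 had 1 gene symbol, updated through RefSeq gene identifiers, and 1719 had none. A gene was represented by its brightest detected probe. All 14 arrays entered 1 model of 7 group means (lmFit, eBayes, 7 residual and 2.5 prior degrees of freedom), and 8 contrasts were adjusted by Benjamini-Hochberg over 10481 genes. The number of arrays limits the precision: the median 95% half-width was 0.29 log2. The fit was tested on simulated data.

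The pathway genes, the further gene lists and the comparisons were chosen with earlier results of these data known. All pathway genes could be named, arrays were printed singly for those called at 1 log2 or more, and at most 4 genes of each other list and comparison were named. Alternatives were the background correction, scaling, deposited values, detection filter, probe choice, prior, arrays in the fit, replicate block, and each array left out.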

Additional observations from a re-analysis of the deposited data

How the results depend on the processing

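Of 240 values (30 genes in 8 comparisons), 137 were called. Of these, 85 kept their call in every alternative, 50 lost it in some and some turned direction. Of the 103 not called, 43 were called in some alternative. With only the arrays compared in the model, 13 genes were called in EpiSCs against 2i ESCs and 10 in EpiSCs against EpiLCs. Over all genes the calls there fell from 6946 to 5025 and from 5909 to 3403. They rose from 5770 to 6219 in EpiLCs against 2i ESCs and from 4160 to 5038 in 2i against RFP-negative serum ESCs. Between the serum ESCs sorted by RFP they fell from 13 to 0. The main model shares 1 spread over all groups, so p-values of EpiSC comparisons may be too small. For genes whose EpiSC arrays lie far apart, such as Pdk4, p-values of the other comparisons may be too large. Leaving out 1 array gave 9 to 18 calls in EpiLCs against 2i ESCs, 18 to 25 in EpiSCs against 2i ESCs, 10 to 24 in 2i ESCs against RFP-negative serum ESCs, 16 to 23 in EpiSCs against EpiLCs, 12 to 20 in EpiLCs against RFP-positive serum ESCs, 26 to 29 in MEFs against single-reporter ESCs, 13 to 20 in single-reporter against RFP-negative serum ESCs and 0 between the serum ESCs sorted by RFP. A lone array was then assumed to vary like the other groups.

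Without background correction 11 of the 137 called differences moved by over 1.5-fold, in Hk1, Pgam2, Pdk4, Slc16a3 and Aldoc, and 1 lost its call (Pgam2 in MEFs against single-reporter ESCs, at -0.52). With arrays scaled to equal medians, Slc2a3 was at -0.32 and Gapdh at -0.44 in EpiSCs against 2i ESCs, and Gapdh at 0.31 in 2i ESCs against RFP-negative serum ESCs. This scaling moved the median of all genes by -0.11 in EpiLCs and -0.17 in EpiSCs against 2i ESCs and by -0.11 in MEFs against single-reporter ESCs. Averaging a gene's detected probes turned Tpi1 in EpiLCs against 2i ESCs (-0.28), Tkt in EpiSCs against 2i ESCs (0.10), in EpiSCs against EpiLCs (0.15) and in single-reporter against RFP-negative serum ESCs (0.57), and Pdhb in MEFs against single-reporter ESCs (0.26). Without EpiSC replicate 2 or 1, Pgam2 was at -0.87 or 1.04 and Pdk4 at -0.74 or 2.36 in EpiSCs against 2i ESCs. The cause was not tested. Same-numbered arrays of different groups did not deviate together (correlations of -0.03 to 0.09 over 21 pairs of groups). With the replicate number as a block, the counts were 14, 23, 18, 0, 18, 17, 28 and 18 in the order of EpiLCs and EpiSCs against 2i ESCs, 2i ESCs and RFP-positive against RFP-negative serum ESCs, EpiSCs against EpiLCs, EpiLCs against RFP-positive serum ESCs, MEFs against single-reporter ESCs and single-reporter against RFP-negative serum ESCs. Only Slc2a3 in EpiSCs against EpiLCs lost its call. Slide as a block was not run, since the headers give no slides.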
